A study of Mus musculus with 33 samples.

Results

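The actin cytoskeleton of the oocyte was followed through 10 genes: the nucleators Fmn2, Spire1, Spire2 and Diaph1, the filament-severing protein cofilin-1 (Cfl1), the cytoplasmic actins Actb and Actg1, the vesicle motor Myo5b with its small GTPase Rab11a, and the membrane linker ezrin (Ezr). The genes were selected by symbol, and all 10 were among the 35321 genes of the count table and passed the filter on low values. Full-grown germinal vesicle (GV) oocytes build an actin mesh throughout the cytoplasm. Formin-2 and the Spire proteins assemble its filaments together on Rab11a-positive vesicles, which myosin Vb moves along the same filaments, and this mesh serves the positioning of the nucleus and the meiotic spindle. Cofilin cuts filaments and returns subunits to the monomer pool, profilin and thymosins hold that pool, and ezrin fastens filaments to the plasma membrane of microvilli.

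Single GV oocytes came from females aged 3 weeks on a C57BL6/Babr background, with 10 oocytes of Nlrp5 +/+, 16 of Nlrp5 +/- and 7 of Nlrp5 -/- genotype and no treatment in any group. The mutant allele is a small CRISPR/Cas9 deletion that gives a premature stop codon, in 1 mouse line. Nlrp5 encodes NALP5, a core protein of the subcortical maternal complex. The Nlrp5 -/- and +/- females were littermates by the study's methods, whereas most Nlrp5 +/+ females came from the parent colony. The labels name no mouse, so the oocytes of a genotype count as 1 sample: no p-value was computed, and the standard deviations (SD) below describe the spread between oocytes only.

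The total was 4223595 to 15573360 counts on genes per oocyte. Values are given as normalized counts, the count divided by the size factor of the oocyte. Nlrp5 itself had a mean of 14138 normalized counts in Nlrp5 +/+, 8103 in +/- and 1997 in -/- oocytes, with no overlap between +/+ and -/-. The oocyte markers were high in every library, at 17309 to 32412 CPM (counts scaled to the library total) summed over 10 genes. The 16 granulosa cell markers summed to 78.3 to 153 CPM in Nlrp5 +/+ and 84.8 to 175 in +/-, but to 215, 298, 517 and 1449 CPM in Nlrp5 -/- oocytes 7, 13, 14 and 15. The other Nlrp5 -/- oocytes, 29, 30 and 31, had 99.4, 105 and 158 CPM. Of the 16, 15 had a higher median in Nlrp5 -/- than in +/+ and 1, Cyp19a1, a lower one (305 against 472 normalized counts). The highest oocyte was higher in Nlrp5 -/- for 14 of them, the exceptions being Cyp19a1 and Kitl. Of the defining granulosa markers, Inhbb, Amh and Foxl2 had a median of 0 in Nlrp5 +/+ and of 10.9, 7.89 and 0.660 normalized counts in -/-, where each was at 0 in at least 1 oocyte. Other markers differed more: the medians in +/+ and -/- were 5.32 and 476 for Inha, 3.78 and 111 for Gja1, and 1.47 and 109 for Hsd17b1. Cyp19a1 and Nr5a2 (median 255 in +/+) were at 0 in no oocyte and weigh heavily in the +/+ sum. The 12 theca and stroma markers reached 237 and 733 CPM in oocytes 14 and 15 and 327 CPM in Nlrp5 +/- oocyte 61, against at most 18.1 CPM in Nlrp5 +/+. All 7 Nlrp5 -/- oocytes were above that +/+ value, the lowest being oocyte 29 at 20.6 CPM, and the median of +/- was 23.5 CPM. The 11 markers of vessel and blood cells summed to 47.3 to 96.3 CPM in Nlrp5 +/+ and +/- and to 208 CPM in oocyte 15. For these markers, oocytes 29, 30 and 31 were each above the highest +/+ oocyte (82.8 CPM) and below the highest +/- oocyte (96.3 CPM). Leaving out oocytes 7, 13, 14 and 15 thus removes the high granulosa sums, but does not bring the other marker sums into the +/+ range. Oocytes 13, 14 and 15 are all the oocytes of 1 first index sequence. Each of the 10 first indexes was used for 1 genotype only, so index and genotype cannot be told apart, and values without these oocytes are given beside the results below.

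How well reads tell these genes from their relatives bears on every value below. Actb and Actg1 have coding sequences of equal length, 1128 bases, which differ at 128 positions (88.7% identity), and their longest run without a difference is 62 bases. The first 90 coding bases are shown for both, with the bases that differ in capitals (GENCODE M39 transcripts Actb-201 and Actg1-202, written 5′ to 3′).
Actb: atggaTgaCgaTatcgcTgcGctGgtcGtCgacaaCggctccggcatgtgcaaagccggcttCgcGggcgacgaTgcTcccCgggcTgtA
Actg1: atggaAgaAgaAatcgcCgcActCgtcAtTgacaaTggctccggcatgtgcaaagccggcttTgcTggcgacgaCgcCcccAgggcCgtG

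There are 16 differences in this stretch, and a read longer than the longest identical run carries at least 1 base that tells the 2 genes apart. Other genes with the same sequence are another matter for Actg1. Of the 3155 stretches of 100 bases in its protein-coding transcripts, 54.4% also occur in transcripts of 7 other genes elsewhere in the genome. None of these is listed in the count table. The largest shares were those of the long non-coding RNA gene Gm70496 (50.5%) and the pseudogene Gm12715 (26.1%). The count of Actg1 is uncertain for this reason, but a share of sequence is not a share of reads, and its effect on the count was not measured. The share was 0.618% for Actb, 0.222% for Cfl1, 0.0945% for Rab11a and 0 for the other 6 genes.

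Cfl1 (chromosome 19, 5490455 to 5495201 in GRCm38, plus strand) was compared in the same way with its paralog Cfl2, the muscle-type cofilin. The coding sequences are both 501 bases long and have 143 differences (71.5% identity), 27 of them in the first 90 bases. Capitals again mark the bases that differ (transcripts Cfl1-201 and Cfl2-201).
Cfl1: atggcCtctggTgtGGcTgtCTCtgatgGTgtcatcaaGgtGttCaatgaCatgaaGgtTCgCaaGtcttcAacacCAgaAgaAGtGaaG
Cfl2: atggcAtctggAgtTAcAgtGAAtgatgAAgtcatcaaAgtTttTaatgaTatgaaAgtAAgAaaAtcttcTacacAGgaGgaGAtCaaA

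No run longer than 11 bases is identical between them. The overlap that does matter for Cfl1 is with Snx32, a gene on the opposite strand: exons of Snx32 cover 32.9% of the exon bases of Cfl1 in GENCODE M39. Snx32 had a mean of 296 normalized counts, and of 8436 genes it was the one most correlated with Cfl1 (r = 0.91 over 33 oocytes). The sources used here do not say whether strand was used in counting, and without strand, reads of the shared exons cannot be assigned to Cfl1 or Snx32. Spire2 lies wholly inside the span of Galnt2l on the same strand, which had a mean of 90.5 normalized counts, against 87.2 for Spire2 (r = 0.41 over 33 oocytes). Galnt2l has no entry in GENCODE M39, so exon bases that the pair may share were not counted.

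Levels were put on a per-length scale before genes were compared with each other, as normalized counts per kilobase of all exons. In Nlrp5 +/+ oocytes (n = 10), Actg1 was at 552 ± 65.0 (SD) per kilobase, Rab11a at 534 ± 142, Cfl1 at 489 ± 92.2, Actb at 416 ± 63.9 and Myo5b at 395 ± 96.0. These 5 levels lay close together, and each differed from its neighbour in the order by less than the larger of their SDs. Spire1 followed at 169 ± 43.5, Fmn2 at 150 ± 45.8 and Diaph1 at 150 ± 39.8, a group about which the same holds. Spire2 was far lower at 13.9 ± 6.16 per kilobase, and Ezr lower still at 2.65 ± 2.83. In Nlrp5 -/- oocytes Actb was first, at 964 ± 592 per kilobase, with Actg1 second at 893 ± 381, and Cfl1 next at 530 ± 212. Actb and Actg1 changed places without oocytes 13, 14 and 15, at 635 ± 231 and 718 ± 118 per kilobase (n = 4), and were at 532 ± 129 and 670 ± 85.1 without oocyte 7 as well (n = 3). The difference between them was within the larger SD in the first 2 of these sets and just past it in the last. The nucleators again lay below these genes in that genotype, with Spire1 at 144 ± 51.4, Diaph1 at 128 ± 44.3, Fmn2 at 121 ± 39.9 and Spire2 at 13.5 ± 3.83 per kilobase.

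**Figure D1:**
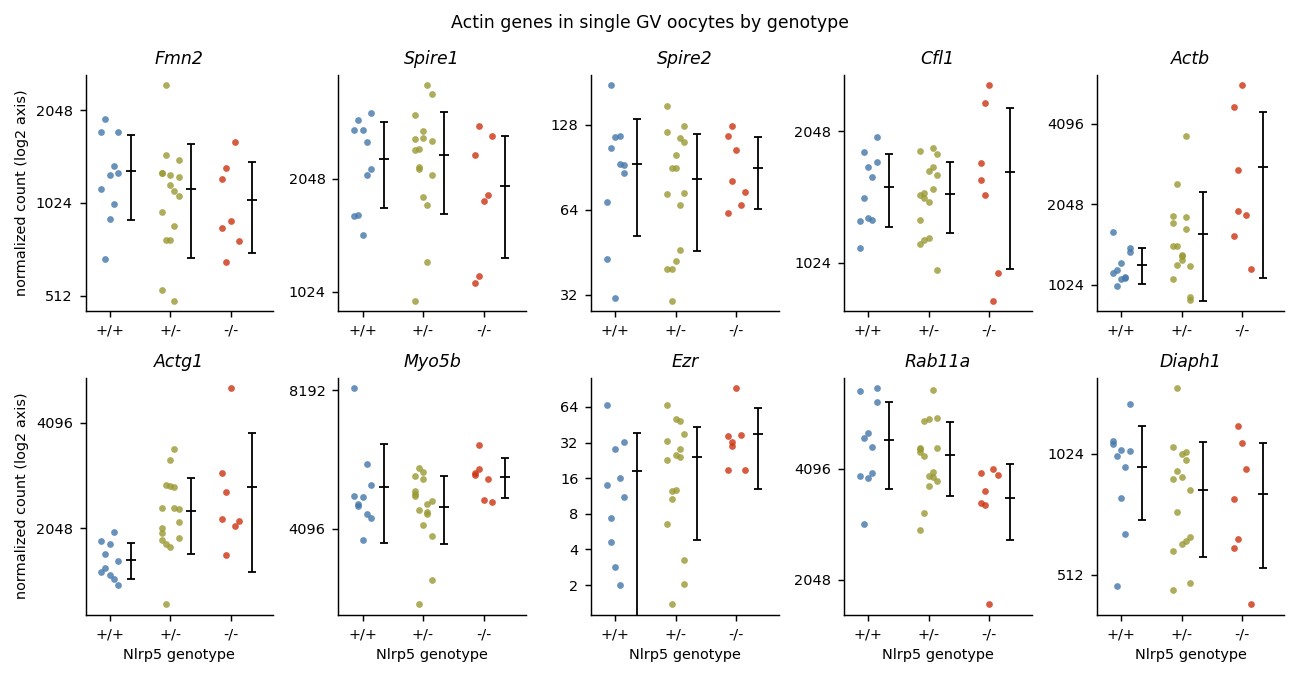
Normalized count (log2 axis) of each of the 10 actin genes in every oocyte, by Nlrp5 genotype. Each point is 1 oocyte, and the bars at the right of each group are the mean ± SD over oocytes (the lower end for Ezr in +/+ falls below 0 and is cut off). Actb, Actg1 and Ezr sit higher in Nlrp5 -/-, and all 7 Nlrp5 -/- oocytes lie below the +/+ median of Rab11a.

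The question put to the genotypes was which actin genes differed in oocytes that lack NALP5. A gene was called past the fold when the ratio of means, log2 of (mean normalized count + 1), was at least 1.5-fold either way (0.58 on the log2 scale). Between Nlrp5 -/- and +/+, 3 of the 10 genes were past the fold, all higher in Nlrp5 -/-: Actb, Actg1 and Ezr. Over all 13896 genes with a mean of at least 10 normalized counts, 24.5% were past the fold in this comparison. The median log2 ratio was 0.02 for the 10 genes and 0.04 for all genes, and the median size of the ratio without its sign was 0.27 and 0.31. For none of the 10 genes were the 2 genotypes free of overlap, against 0.597% of all genes. Without oocytes 13, 14 and 15, 1 of the 10 (Actb) was past the fold, against 18.9% of all genes, and without oocyte 7 as well it was 1 (Diaph1, lower), against 20.5%. Genes of higher level were past the fold less often: of the 8436 genes with a mean of at least 100 normalized counts it was 14.2%, and of the 8 of the 10 genes that reach this mean it was 2.

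Actb, the beta actin of non-muscle cells, had 2817 ± 1731 normalized counts in Nlrp5 -/- (SD, n = 7) and 1217 ± 187 in +/+ (n = 10), a log2 ratio of 1.21 (2.31-fold). In Nlrp5 -/- the oocytes had 1174 (oocyte 29), 1560 (31), 1861 (13), 1931 (30), 2759 (7), 4724 (14) and 5710 (15) normalized counts. In Nlrp5 +/+ the lowest was 1014, the median 1147 and the highest 1609. All 7 Nlrp5 -/- oocytes were above the +/+ median and 5 were above every +/+ oocyte. The 3 highest of the 7 are among the 4 oocytes with the most granulosa marker counts, and the part of those cells in the difference was not tested. Without oocytes 13, 14 and 15 the log2 ratio was 0.61, and without oocyte 7 as well it was 0.35. Nlrp5 +/- oocyte 56 had 3696 normalized counts, below only oocytes 14 and 15, and 119 CPM of these markers.

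Actg1, the gamma actin that fills the same filaments, had 2684 ± 1145 normalized counts in Nlrp5 -/-, 2290 ± 558 in +/- (n = 16) and 1660 ± 196 in +/+. The Nlrp5 -/- oocytes had 1722 (oocyte 30), 2075 (13), 2144 (29), 2183 (31), 2593 (7), 2952 (14) and 5122 (15), and 6 of the 7 were above the highest +/+ oocyte, which had 1992. The log2 ratio to +/+ was 0.69 (1.62-fold), 0.46 without oocyte 15, 0.38 without oocytes 13, 14 and 15, and 0.28 without oocyte 7 as well. The direction was thus the same in each of these sets, while the call past the fold was lost in all 3 of them. With all oocytes kept, the ratio by medians was 0.44, also short of the fold. In Nlrp5 +/- the lowest oocyte had 1248, the median was 2232 and the highest was 3445. Of the 16 Nlrp5 +/- oocytes, 15 were above the +/+ median and 10 were above every +/+ oocyte, although the ratio of 0.46 on the log2 scale did not reach the fold. The means of the 4 first indexes of Nlrp5 +/- were 2107, 2318, 2321 and 2416 normalized counts, each above the 3 of +/+, which were 1601, 1624 and 1730.

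Between Nlrp5 +/- and +/+, none of the 10 genes was past the fold, against 6.19% of all genes, and no gene of the 13896 was free of overlap (0%). Actg1 had the largest ratio of the 10, with Actb next at 0.38 and Ezr at 0.36. The other 7 lay between -0.20 (Fmn2 and Diaph1) and 0.03 (Spire1). Without Nlrp5 +/+ oocyte 79, which had 66.7 normalized counts of Ezr, the ratio of Ezr was 0.82 and past the fold.

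The balance of the 2 actins was also given as the share of Actb in the counts of both. It was 42.3% ± 5.60 in Nlrp5 +/+, 40.1% ± 7.32 in +/- and 49.0% ± 8.51 in -/-. The lowest and highest shares were 35.2% and 51.1% in Nlrp5 +/+, 28.3% and 51.8% in +/-, and 35.4% and 61.5% in -/-, the last in oocyte 14. The median of Nlrp5 -/- was 51.6%, just above the highest +/+ oocyte, while the lower ends of the ranges overlapped. Without oocytes 13, 14 and 15 the share in Nlrp5 -/- was 45.4% ± 8.32 (n = 4), and without oocyte 7 as well it was 43.3% ± 8.85 (n = 3), within the +/+ range.

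The 2 actins were among the most even genes in Nlrp5 +/+. The SD of log2 values over oocytes was 0.17 for Actg1 and 0.21 for Actb, and only 1.7% and 6.1% of 8436 genes with a mean of at least 100 normalized counts had a smaller one. In Nlrp5 -/- the SD was 0.51 and 0.84, with 63.3% and 89.7% of genes below it, while the median of all these genes went only from 0.38 to 0.43. For Actg1 this rested on oocyte 15, without which its SD in Nlrp5 -/- was 0.27 and 22.7% of genes had a smaller one. For Actb it was 0.70 without oocyte 15 (87.9% of genes smaller), 0.52 without oocytes 13, 14 and 15, and 0.36 without oocyte 7 as well. In Nlrp5 +/- the SD was 0.36 for Actg1 and 0.52 for Actb.

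**Figure D2:**
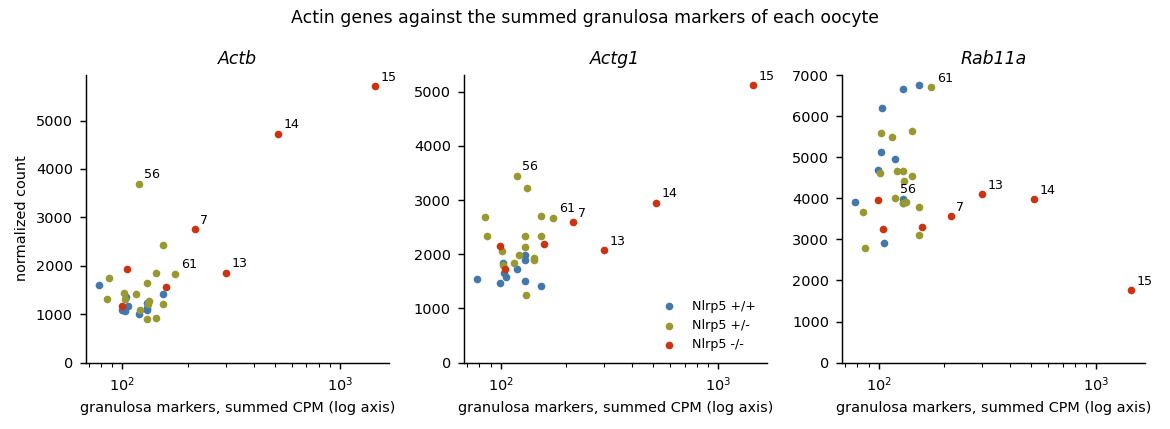
Normalized counts of Actb, Actg1 and Rab11a in each oocyte (vertical axis) against the summed CPM of 16 granulosa cell markers (horizontal log axis), coloured by Nlrp5 genotype, with 6 oocytes numbered. Oocytes 14 and 15 have the most marker counts and the most Actb, oocyte 15 also has the least Rab11a (1760), and oocyte 56 is at 3696 normalized counts of Actb and 119 CPM of markers.

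The mean level of cofilin-1 did not differ in the way those of the actins did. Cfl1 had 1526 ± 287 normalized counts in Nlrp5 +/+, 1471 ± 274 in +/- and 1654 ± 661 in -/-. The Nlrp5 -/- oocytes had 838 (oocyte 13), 968 (29), 1460 (30), 1585 (14), 1735 (31), 2380 (7) and 2608 (15). In Nlrp5 +/+ the lowest was 1103, the median 1524 and the highest 1986, so that 2 Nlrp5 -/- oocytes lay above and 2 below the whole +/+ range. The log2 ratio of the means was 0.12, smaller than the pooled SD of 0.44, and it was -0.03 without oocyte 15 and -0.14 without oocytes 7, 13, 14 and 15. No direction can be given for Cfl1 in Nlrp5 -/-, and its ratio of -0.05 in +/- was also within the SD of 0.28.

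Rab11a, which marks the vesicles that carry the nucleators, was lower in Nlrp5 -/-. Its mean was 3418 ± 803 normalized counts in Nlrp5 -/-, 4471 ± 1015 in +/- and 4907 ± 1303 in +/+. The Nlrp5 -/- oocytes had 1760 (oocyte 15), 3259 (30), 3313 (31), 3565 (7), 3949 (29), 3978 (14) and 4101 (13). All 7 were below the +/+ median of 4815 and below the +/- median of 4491, but only oocyte 15 was below every oocyte of the other genotypes, whose lowest values were 2903 and 2798. The log2 ratio to +/+ was -0.52 (0.697-fold), short of the fold, and 71.1% of all genes had a smaller one. It differed little without the doubtful libraries: -0.41 without oocyte 15, -0.48 without oocytes 13, 14 and 15, and -0.48 without oocyte 7 as well. Without Nlrp5 +/+ oocyte 87 it was -0.59, past the fold. In such values, fewer transcripts of a gene and more RNA of other genes or cells in the library cannot be told apart.

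The partner of Rab11a, Myo5b, did not differ in the same direction. It had 5311 ± 527 normalized counts in Nlrp5 -/-, 4563 ± 764 in +/- and 5045 ± 1226 in +/+, and all 7 Nlrp5 -/- oocytes, at 4672 to 6230, lay within the +/+ range of 3878 to 8266. Against Nlrp5 +/-, whose median was 4672, all 7 were higher, the lowest of them narrowly, with a log2 ratio of 0.22 that stayed between 0.18 and 0.25 when any 1 oocyte was left out.

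Of the nucleators, none was past the fold in Nlrp5 -/- with all oocytes. Fmn2, the formin of the oocyte mesh, had 1301 ± 397 normalized counts in +/+, 1135 ± 458 in +/- and 1048 ± 345 in -/-. Its 7 Nlrp5 -/- oocytes had 661 (oocyte 30), 773 (29), 847 (14), 895 (15), 1225 (31), 1324 (7) and 1613 (13), against a lowest of 673, a median of 1270 and a highest of 1909 in +/+. The log2 ratio was -0.31, smaller than the pooled SD of 0.47. It was -0.50 by medians, -0.39 without oocytes 13, 14 and 15, and -0.55 (0.682-fold) without oocyte 7 as well, each short of the fold.

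Spire1, which seeds filaments together with formin-2, had a log2 ratio of -0.24 (1962 ± 701 against 2311 ± 594 normalized counts), and its paralog Spire2 one of -0.04 (90.3 ± 25.6 against 93.2 ± 41.3). Without oocytes 13, 14 and 15 these ratios were -0.04 for Spire1 and 0.10 for Spire2, and without oocyte 7 as well they were -0.17 and -0.04. Diaph1, another formin, had 811 ± 280 against 952 ± 252, a log2 ratio of -0.23. Its Nlrp5 -/- oocytes had 433 (oocyte 29), 597 (31), 627 (30), 791 (14), 941 (13), 1091 (15) and 1201 (7). The 3 lowest are those of 1 first index with few granulosa marker counts, and with only these the ratio was -0.79, past the fold. The lowest Nlrp5 +/+ and +/- oocytes had 479 and 469, and only oocyte 29 was below both.

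Ezr was scarce, with a mean of 25.3 normalized counts over the 33 oocytes and 947 counts in all. Its mean was 37.8 ± 24.9 in Nlrp5 -/-, 24.1 ± 19.3 in +/- and 18.5 ± 19.8 in +/+. The Nlrp5 -/- oocytes had 18.8 (oocyte 31), 18.9 (29), 29.7 (7), 32.3 (30), 36.0 (14), 36.9 (13) and 91.6 (15). In Nlrp5 +/+ the lowest was 2.02, the median 12.6 and the highest 66.7, so all 7 Nlrp5 -/- oocytes were above the +/+ median and only oocyte 15 was above its range. The log2 ratio was 0.99, less than the pooled SD of 1.21, and was 0.61 without oocyte 15, 0.41 without oocytes 13, 14 and 15, and 0.32 without oocyte 7 as well. It was larger in other settings, at 1.45 without Nlrp5 +/+ oocyte 79, 1.42 by the mean of log2 values and 1.29 by medians. At equal staging score, a score of chromatin stage described with the slopes, it was 1.23. That value is fitted to log2 levels and compares with the 1.42, not with the 0.99. Summed over oocytes, Ezr was at 5.13 CPM in Nlrp5 -/- (95% exact Poisson interval 4.56 to 5.76, counting error only) and at 2.44 CPM (2.15 to 2.76) in +/+. At these counts the level in 1 oocyte is uncertain.

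The comparison of Nlrp5 -/- with +/- set littermate females against each other. Actb (0.83) and Ezr (0.63) were past the fold, 2 of 10 genes against 19.9% of all genes, and no gene of the 10 was free of overlap, against 0.158% of all genes. Both calls rest on few libraries. Without oocyte 15 the log2 ratios were 0.56 and 0.25, and without oocytes 7, 13, 14 and 15 they were -0.02 and -0.04. Ezr also lost its call when any 1 of 7 Nlrp5 +/- oocytes (38, 39, 40, 55, 62, 63 and 64) was left out, with ratios of 0.54 to 0.58. Rab11a was at -0.39 in this comparison. Actg1 was at 0.23, but at -0.03 by medians, -0.01 without oocyte 15 and -0.18 without oocytes 7, 13, 14 and 15. Cfl1 was at 0.17, and at -0.08 without those 4 oocytes.

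**Figure D3:**
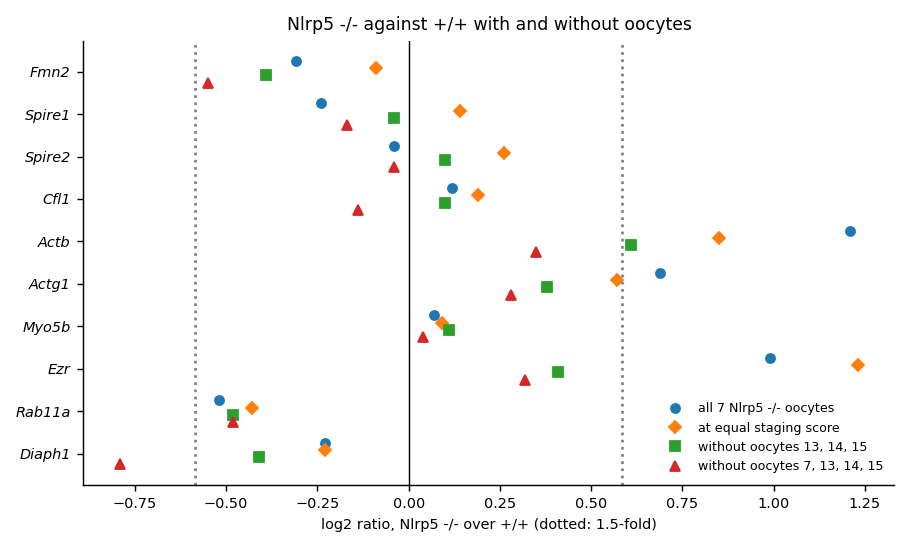
Log2 ratio of Nlrp5 -/- over +/+ (horizontal axis) for the 10 actin genes with all 7 Nlrp5 -/- oocytes, at equal staging score, and without the oocytes whose granulosa markers were high. The dotted lines are 1.5-fold either way. Values at equal staging score are fitted to log2 levels, and the others are ratios of means. Actb goes from 1.21 to 0.35 as oocytes are left out, whereas Rab11a stays between -0.52 and -0.43.

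During the GV stage, chromatin goes from the non-surrounded nucleolus (NSN) to the surrounded nucleolus (SN) form as transcription shuts down. The labels give no stage, so each oocyte was given a staging score: the mean log2 level of 59 SN marker genes minus that of 105 NSN marker genes, from the published list that the study used. None of the 10 genes is on it. The score ran from 1.99 to 5.27, with medians of 4.31 in Nlrp5 +/+, 3.33 in +/- and 2.99 in -/-, and genotypes overlapped along it. The change of a gene is given as the slope of its log2 level per unit of score within genotypes.

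None of the 10 genes had a slope past 1.5-fold per unit, against 10.7% of all genes other than the markers. The median slope was 0.06 for the 10 genes and 0.00 for all.

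Spire1 had the steepest slope, 0.44 on the log2 scale per unit of score (1.36-fold), and 83.3% of genes had a smaller one. It was 0.39 within Nlrp5 +/+, 0.42 within +/- and 0.66 within -/-, and 0.46 with 1 intercept for each first index. In Nlrp5 +/+ the 4 oocytes with scores of 2.86 to 3.23 had 1451 to 2091 normalized counts, and the 6 with scores of 4.07 to 5.27 had 2176 to 3065, without overlap. In Nlrp5 -/- the oocyte with the lowest score, 14, had 1079 and the one with the highest, 7, had 2832. The 3 Nlrp5 +/- oocytes with the highest scores (47, 38 and 46) had 3641, 3451 and 3030 and were the 3 highest of that genotype, while the lowest, 969, was in oocyte 48 with the lowest score. At equal score the Nlrp5 -/- ratio to +/+ of Spire1 was 0.14. Ratios at equal score are fitted to log2 levels, so they are set against the mean of log2 values, here -0.28. Both lay within the pooled SD of 0.47.

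The other nucleators had positive slopes that were smaller: Fmn2 0.23 (0.19, 0.24 and 0.35 within +/+, +/- and -/-) and Spire2 0.21 (0.20, 0.16 and 0.46). The slope of Spire2 was -0.02 with 1 intercept for each first index. Diaph1 was flat at 0.03. At equal score the Nlrp5 -/- ratio to +/+ was -0.09 for Fmn2 and 0.26 for Spire2, against -0.31 and 0.05 by the mean of log2 values.

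Cfl1 had a slope of 0.16, with 0.11 within +/+, 0.18 within +/- and 0.24 within -/-, thus positive in each genotype and near the middle of all genes by size (49.6% had a smaller one). In Nlrp5 +/+ its highest value, 1986, was in the oocyte with the highest score, but the second, 1831, was in an oocyte with a score of 2.97.

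The actins had slopes of -0.16 (Actb) and -0.04 (Actg1). For Actb the slope was -0.03 within +/+, -0.18 within +/- and -0.43 within -/-, where the lowest score belongs to oocyte 14. The slope of Actg1 was 0.06 within +/+ and -0.10 and -0.09 within the others. At equal score the Nlrp5 -/- ratio to +/+ was 0.85 for Actb and 0.57 for Actg1, the latter just short of the fold. By the mean of log2 values these ratios were 1.01 and 0.61.

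Rab11a (0.09) and Myo5b (-0.01) were flat. At equal score the Nlrp5 -/- ratio to +/+ of Rab11a was -0.43, against -0.52 by the mean of log2 values. Ezr had a slope of -0.19, but 0.38 within +/+, -0.54 within +/- and -0.35 within -/-, so no common direction was seen.

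**Figure D4:**
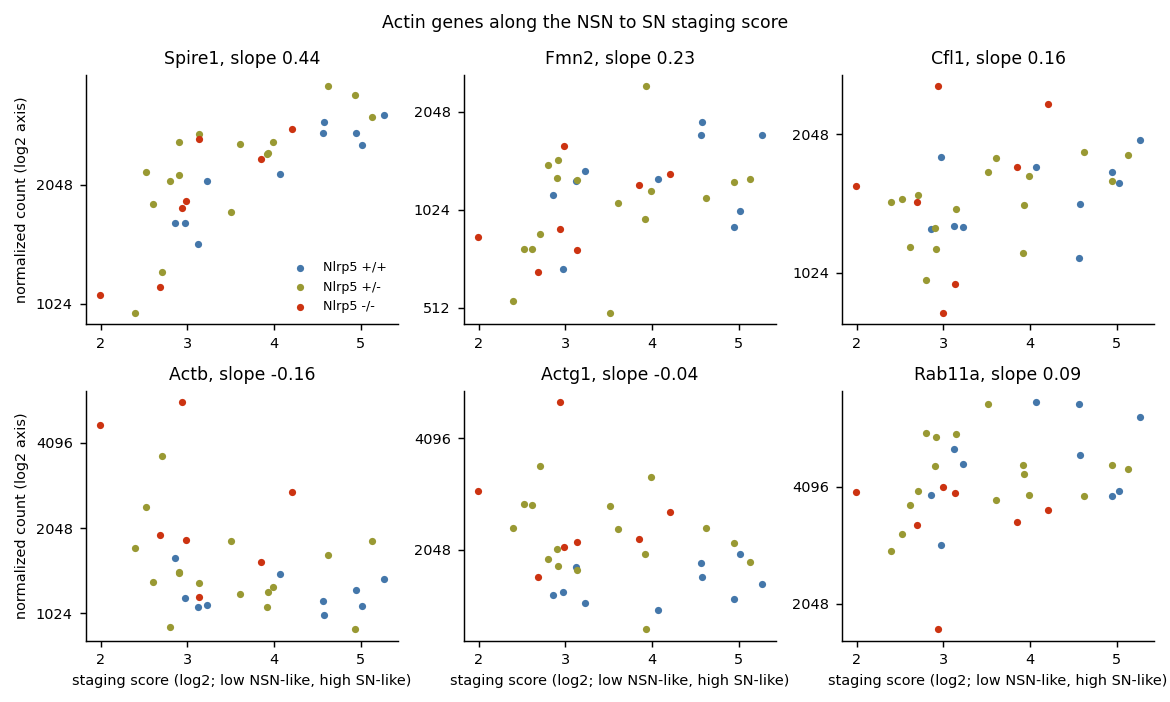
Normalized count (log2 axis) of 6 actin genes against the staging score of each oocyte (low for NSN-like, high for SN-like), coloured by Nlrp5 genotype, with the slope within genotypes in each title. Spire1 climbs with the score in all 3 genotypes (slope 0.44), and Rab11a does not (0.09).

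Genes that varied together over the 33 oocytes were described by Pearson's r of log2 levels, and the points share library, depth and staging. Of the 10 genes, Actb and Actg1 were the most alike pair with all oocytes (r = 0.68). Without oocyte 15 their r was 0.55, below that of Fmn2 and Diaph1 (0.65). For Actb and Actg1, r was -0.54 within Nlrp5 +/+, 0.53 within +/- and 0.83 within -/-. Fmn2 went with Diaph1 (r = 0.62) and with Spire1 (0.55), and these were 0.84 and 0.51 within Nlrp5 +/+, 0.54 and 0.60 within +/-, and 0.51 and 0.50 within -/-. The 2 actins were opposed to Rab11a (r = -0.51 for each), which was -0.31 and -0.28 without oocyte 15. For Actb and Actg1 in turn, r with Rab11a was 0.07 and 0.08 within Nlrp5 +/+, -0.32 and -0.35 within +/-, and -0.58 and -0.77 within -/-. For Cfl1, the genes most alike after Snx32 were Gm20490 (r = 0.86), Sf3a2 (0.85), Banf1 (0.85) and Gm45799 (0.84), none of which overlaps it. For Fmn2 they were Usp7 (r = 0.88), Cenpe (0.86), Wapl (0.84), Cnot6l (0.84) and Pde3a (0.83).

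Upstream sequence was examined because Actb and Actg1 were both past the fold with all oocytes, and actin genes are textbook targets of serum response factor, which binds the CArG box. Of the 10 genes, 6 had an entry among the promoters used (RefSeq, GRCm38.p6): Fmn2, Spire2, Cfl1, Actg1, Ezr and Rab11a. In the 250 bases before the start, on either strand since the box reads alike on both, a CArG box was found once in Actg1 and once in Rab11a, and in 1.47% of 32851 promoters. The windows of Actg1 (past the fold with all oocytes), Rab11a (short of the fold) and Cfl1 (no direction) are shown in the gene's own direction, with the CArG box in capitals: Actg1 at chr11:120348496-120348745, minus strand, Rab11a at chr9:64737757-64738006, minus strand, and Cfl1 at chr19:5490205-5490454, plus strand.
Actg1: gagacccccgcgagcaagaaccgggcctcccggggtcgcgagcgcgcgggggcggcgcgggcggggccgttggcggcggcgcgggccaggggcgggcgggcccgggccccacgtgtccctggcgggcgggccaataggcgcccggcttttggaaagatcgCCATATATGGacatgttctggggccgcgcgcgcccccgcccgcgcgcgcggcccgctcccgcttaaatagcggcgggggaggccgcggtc
Rab11a: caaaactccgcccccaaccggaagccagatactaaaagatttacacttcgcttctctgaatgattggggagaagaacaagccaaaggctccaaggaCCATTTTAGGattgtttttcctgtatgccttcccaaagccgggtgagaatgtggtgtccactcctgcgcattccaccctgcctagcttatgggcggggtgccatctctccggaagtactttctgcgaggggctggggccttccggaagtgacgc
Cfl1: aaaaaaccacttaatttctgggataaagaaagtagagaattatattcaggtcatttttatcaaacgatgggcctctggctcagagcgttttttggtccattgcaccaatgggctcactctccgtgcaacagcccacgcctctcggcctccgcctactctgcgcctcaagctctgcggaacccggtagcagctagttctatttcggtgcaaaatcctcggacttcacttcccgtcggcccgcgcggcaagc

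The box begins 90 bases before the start in Actg1 and 154 bases before it in Rab11a. Actb had no entry, and a part of serum response factor in any of these differences was not tested.

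A further 118 genes of the actin system, listed by role, gave the surroundings of the 10. Of these, 107 passed the filter, and between Nlrp5 -/- and +/+ 26 were higher and 3 lower past the fold (27.1%, against 24.5% of all genes). Without oocyte 15 these counts were 16 and 5 (19.6%, against 20.3% of all genes). Without oocytes 13, 14 and 15 they were 10 and 7 (15.9%, against 18.9%), and without oocyte 7 as well 11 and 12 (21.5%, against 20.5%). The part of granulosa cells in these counts was not tested. Between Nlrp5 +/- and +/+, 6 were higher and none lower (5.61%, against 6.19% of all genes), and between Nlrp5 -/- and +/- 20 were higher and 2 lower (20.6%, against 19.9%).

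In the cofilin pathway, 3 of 16 genes were higher and 1 was lower in Nlrp5 -/- against +/+, with a median log2 ratio of 0.26. This is 25.0%, near the 24.5% of all genes, and the counts were 2 and 1 without oocytes 13, 14 and 15 and 3 and 2 without oocyte 7 as well. Pdxp encodes chronophin, a phosphatase that activates cofilin. It had 377 to 993 normalized counts in the 7 Nlrp5 -/- oocytes (mean 608 ± 219) and 198 to 462 in +/+ (304 ± 84.2), a log2 ratio of 1.00 that was 0.86 without oocytes 13, 14 and 15 and 0.71 without oocyte 7 as well. Coro1c, a coronin that works beside cofilin, had 383 to 761 (539 ± 131) against 195 to 402 (339 ± 61.2), a ratio of 0.67, and 0.83 without those 4 oocytes. In Nlrp5 +/- the ratio of Coro1c was 0.57, the largest of the better expressed actin genes in that genotype. Ssh2, a slingshot phosphatase of cofilin, was lower (111 ± 39.9 against 176 ± 51.1, log2 ratio -0.66, and -0.82 without those 4 oocytes). The paralogs of cofilin-1 were within the fold, Cfl2 at -0.35 and Dstn at 0.27.

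Of 16 filament capping and crosslinking genes, 6 were higher and 1 lower (43.8% past the fold, against 24.5% of all genes). Without oocyte 15 it was 4 and 2, without oocytes 13, 14 and 15 it was 3 and 2, and without oocyte 7 as well 2 and 3. Fscn1, the bundler fascin, had the largest ratio by the naming rule, 3.48, and it rested mostly on 1 library: oocyte 15 had 2210 normalized counts, oocyte 14 had 354 and the other Nlrp5 -/- oocytes had 17.2 to 78.3, against 7.79 to 63.5 in +/+. Without oocyte 15 the ratio was 1.44, and without oocytes 13, 14 and 15 it was 0.07. Tpm3, a tropomyosin that coats filaments, was lower: 6 of the 7 Nlrp5 -/- oocytes had 49.9 to 118 normalized counts, below the whole +/+ range of 150 to 391, and oocyte 15 had 468. The log2 ratio was -0.87 with all oocytes, -1.69 without oocyte 15 and -1.93 without oocytes 7, 13, 14 and 15. The difference of Tpm3 was thus larger, not smaller, without oocyte 15.

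**Figure D5:**
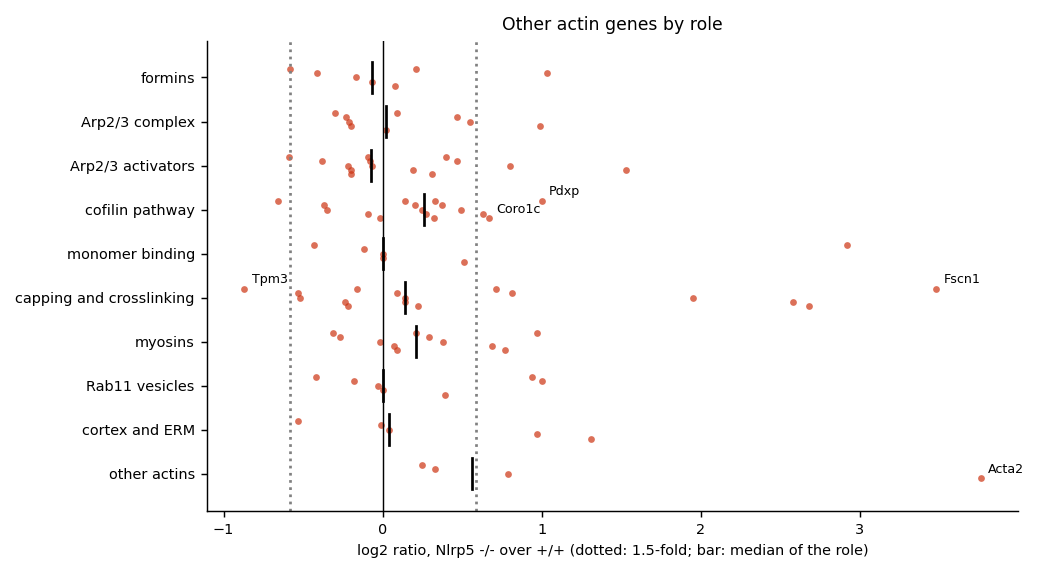
Log2 ratio of Nlrp5 -/- over +/+ (horizontal axis) of 95 other actin genes in 10 roles. Points are genes, black bars the median of each role and dotted lines 1.5-fold, and the points farthest right (Fscn1 at 3.48, Acta2 at 3.76) have the largest ratios, with Tpm3 at the far left (-0.87).

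In the Arp2/3 complex, which branches filaments, 1 of 9 genes was past the fold: Arpc1a, with 760 ± 426 normalized counts in Nlrp5 -/- and 381 ± 97.3 in +/+ (log2 ratio 0.99, and 0.37 without oocytes 13, 14 and 15). Of 14 activators of the complex, 2 were higher and 1 was lower (21.4%, against 24.5% of all genes), and without oocytes 13, 14 and 15 none was higher and 1 lower. Among 7 formins, Inf2 was higher (1.03, and 0.52 without oocyte 15), and its ratio in Nlrp5 +/- to +/+ was also 1.03. No formin was higher and 1 was lower without oocytes 13, 14 and 15, and 2 were lower without oocyte 7 as well. Of 11 myosin genes 3 were higher (27.3%) and none without oocyte 15. None was higher and 1 was lower without oocytes 13, 14 and 15, and 2 were lower without oocyte 7 as well. Myl6, a myosin light chain, was at 0.97 (-0.04 without oocytes 13, 14 and 15, and -0.59 without oocyte 7 as well). Of 7 genes of Rab11 vesicles 2 were higher (28.6%), and 1 was higher and 1 lower without oocytes 13, 14 and 15, with the Rab11 effector Rab11fip5 at 1.00 (0.74 without oocytes 13, 14 and 15, and 0.48, no longer past the fold, without oocyte 7 as well). Of 6 monomer-binding genes 1, Tmsb4x, was higher (2.92, 1.30 without oocyte 15, 0.55 without oocytes 13, 14 and 15, and 0.95 without oocyte 7 as well), and profilin-1 (Pfn1) was at 0.00 in Nlrp5 -/- and 0.41 in +/-. Of 5 genes of the cortex 2 were higher (40%), and 1 without oocyte 15 (20%). Of 4 other actin genes 2, Acta2 and Actg2, were higher (50.0%), while Actl6a and Actr1a encode actin-related proteins. Without oocytes 7, 13, 14 and 15, 2 of the 4 were again higher. The shares of all genes were 24.5% with all oocytes, 20.3% without oocyte 15, 18.9% without oocytes 13, 14 and 15, and 20.5% without oocyte 7 as well. Acta2, the smooth muscle actin, had 27.0 to 619 normalized counts in Nlrp5 -/- and 0 to 29.6 in +/+, a log2 ratio of 3.76 that was 2.34 without oocytes 13, 14 and 15. Ssh2, Inf2, Tmsb4x and Acta2 fall outside the naming rule and were chosen after their values were seen. Arpc5, another subunit of the Arp2/3 complex, was at 0.41 in Nlrp5 +/-.

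Along the staging score, 2 of 105 of these genes had a positive and 7 a negative slope past the fold (8.57%, against 10.7% of all genes). Of those with a mean of at least 100 normalized counts, the steepest were Abi2 (-1.25), a subunit of the WAVE complex that switches on Arp2/3, the formin Fmnl2 (-1.05) and cortactin, Cttn (-0.97), which steadies branches. Myh10, a non-muscle myosin heavy chain, was at -0.66, Rab11b, the paralog of Rab11a, at -0.56, and Myo1e at 0.62. Lcp1 and Pak2 are NSN markers of the score and were left out of this count.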

How the data were processed

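RNA of 33 single oocytes was sequenced by the scM&T-seq protocol. Per the submitters' notes, Trim Galore was used for trimming and HISAT2 for alignment, and the authors deposited raw read counts for every gene. The file gives GRCm38 and the study's methods name GRCm39. Coordinates printed here are those of GRCm38, and versions and strand setting are not given in the sources used here. Shallow libraries had been left out by the study. Its stage comparisons also dropped oocytes of unclear stage, so they held fewer Nlrp5 -/- oocytes than the set used here. Of 35373 entries, 52 repeats were left out. All columns belonged to a labelled oocyte. The column of oocyte 39 was matched by its number, as its second index differs from the label. Other deposited tables hold a read total per library, and fold changes and p-values of genes that the authors called. They were not used.

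Counts were divided by median-of-ratios size factors. Ratios are of mean normalized counts with a pseudocount of 1, and genes needed a mean of 10 (100 for naming). Ratios at equal staging score are instead differences of log2 levels, fitted with the score and 1 intercept per genotype. Slopes were fitted by least squares with 1 intercept per genotype. The genes, lists and rules were chosen with earlier results of these data known. Named beside the 10 genes were the 6 other actin genes with the largest Nlrp5 -/- ratio, the 6 with the largest slope, the 3 with the largest +/- ratio and the 5 genes most like Cfl1 and Fmn2. Of the listed names, 118 genes were found. The counts of 1 role are not reported here. With 1 sample per genotype, no test was made. The calculations were tested on simulated data. Python 3.11.15 with numpy 2.4.6 and, for TMM factors, edgeR 4.0.16 were used. Exon lengths and shared sequence came from GENCODE M39, with no coordinates taken from it. Precision of a single gene is limited by 4223595 counts in the shallowest oocyte. The alternatives were other scalings, a pseudocount of 5, medians, means of logs, pooled counts, equal staging score, other filters, other marker sets and leaving out oocytes.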

Additional observations from a re-analysis of the deposited data

Results flagged for a closer look

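In 20 groups of 7 or 10 oocytes (each gene in Nlrp5 -/- and +/+), the highest or lowest oocyte was compared with its nearest neighbour by Dixon's ratio. For independent, normally distributed values, about 1 group of 20 passes it by chance. The values here were counts without a log scale, and the groups share oocytes, so that rate need not hold. Single oocytes stood apart in 5 groups. Oocyte 15 (Nlrp5 -/-) was apart for Actg1 (5122 normalized counts, next 2952), Ezr (91.6, next 36.9) and Rab11a (1760, next 3259). It also has 1449 CPM of granulosa markers, and their part in these values was not tested. Oocyte 79 (Nlrp5 +/+), which has the lowest granulosa marker sum of all (78.3 CPM) and the lowest staging score of its genotype (2.86), was apart for Myo5b (8266, next 5649) and Ezr (66.7, next 32.1).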

How the results depend on the processing

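Of 1380 values of single genes under the alternatives, 1372 moved by less than 1 SD over oocytes, 6 moved by more and 2 reversed. Most of these alternatives leave out a single oocyte, which can hardly move a mean by 1 SD, so the count says little about robustness. Values were called reversed only where they were past the fold with all oocytes. Other changes of sign are not among the 2, such as Cfl1 in Nlrp5 -/- against +/+ (0.12, and -0.14 without oocytes 7, 13, 14 and 15). Without oocytes 7, 13, 14 and 15, chosen after seeing the data, the Nlrp5 -/- to +/- ratios of Actb and Ezr turned to -0.02 and -0.04. Those of Actg1 and Cfl1, not past the fold with all oocytes, went to -0.18 and -0.08. Genes past the fold in Nlrp5 -/- against +/+ numbered 2 by medians, 2 at equal staging score, 1 without oocytes 13, 14 and 15 and 1 without oocyte 7 as well (3 with all). For Nlrp5 +/- against +/+ there was 1 by medians (0 by means). For Nlrp5 -/- against +/- there was 1 with a pseudocount of 5, 0 by medians, 1 by pooled counts, 0 without oocytes 13, 14 and 15, and 1 (Diaph1) without oocyte 7 as well. Leaving out each oocyte in turn gave 2 to 4, 0 to 1 and 0 to 2 genes in these comparisons and 0 for slopes, where within Nlrp5 -/- alone there was 1 (Spire1). The share of all genes past the fold with a mean of at least 100 was 14.2% (Nlrp5 -/- against +/+), 0.925% (+/- against +/+), 10.03% (-/- against +/-) and 3.42% (slopes), and 14.6% with no filter for +/- against +/+. The cause was not tested. Scores of NSN or SN markers alone were rescaled to the spread of the whole score. No paired analysis was possible because replicate numbers only follow the order of the samples and pair no oocytes. Low depth limits Ezr and Spire2 most.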
